A study of Schmidtea mediterranea with 6 samples.

Results

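Asparaginase (ASPG, gene model SMESG000051813.1) and Aminopeptidase N (SMESG000022279.1) are a pair of amino acid and peptide hydrolases whose RNA was followed in sorted stem cells of the planarian Schmidtea mediterranea. They were chosen by their gene descriptions and by their large, opposite differences between the groups of these same libraries, so the size and direction of their own change are given as a description, with no test. They are 2 of the 30917 gene models counted, of which 21927 had at least 1 read and 14700 were abundant enough to be tested. Both passed that filter, with at least 77 reads in every library.

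The study injected planarians of 5 to 5.5 mm ventrally with double-stranded RNA (dsRNA), in 2 rounds of 3 consecutive days each. The exoc3(RNAi) animals received dsRNA against Smed-exoc3, which encodes a subunit of the exocyst, the complex that tethers secretory vesicles to the plasma membrane. The gfp(RNAi) animals received dsRNA against gfp, a sequence that the planarian genome lacks, and animals of both groups were starved. X1 cells, the dividing and irradiation-sensitive fraction that holds the planarian stem cells (neoblasts), were sorted from dissociated animals after staining of DNA and of live cells, and poly(A) RNA of 3 libraries per group was sequenced. RNAi by injection lowers a transcript in the whole animal and does not delete the gene, so the X1 cells came from animals in which other tissues were treated too.

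Asparaginases hydrolyse the amide of asparagine and release aspartate and ammonia. The planarian gene model carries an asparaginase domain together with ankyrin repeats, a combination also found in the mammalian ASPG protein. Aminopeptidase N is a zinc metallopeptidase of family M1 that removes single amino acids from the N-terminal end of peptides. In mammals it is anchored in the plasma membrane with its catalytic part outside the cell and is abundant on the absorptive surface of the gut. These roles are known from mammals and were not measured here.

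Library sizes did not separate the groups, with 28897363 to 37525894 assigned reads in exoc3(RNAi) and 31390710 to 33805416 in gfp(RNAi). Of the 6 libraries, exoc3(RNAi) replicate 3 stood furthest from its group: it differed from the other exoc3(RNAi) libraries with a chi-square per degree of freedom of 8.18 and 7.46, against 1.37 between those, and it also had the weakest knockdown. To a smaller extent gfp(RNAi) replicate 1 differed from its partners, at 3.14 and 2.73, against 1.35 between those. Smed-exoc3 itself was at 44.1%, 43.1% and 58.7% of the gfp(RNAi) mean in exoc3(RNAi) libraries 1, 2 and 3 and fell by 1.04 on the log2 scale (SE 0.09, edgeR quasi-likelihood adjusted p = 5.7e-07). The dsRNA and the transcript share sequence, and whether reads from dsRNA were counted was not tested.

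Asparaginase RNA was covered by few reads in control X1 cells and was 8.54-fold higher after Smed-exoc3 dsRNA, with similar values in all 3 libraries. It was covered by 882, 661 and 774 reads in exoc3(RNAi) libraries 1, 2 and 3, against 92, 77 and 85 reads in the gfp(RNAi) libraries. On the scale of CPM, read counts scaled to a common library size with TMM factors, this was 23.2, 22.5 and 22 CPM in exoc3(RNAi) and 2.87, 2.49 and 2.55 CPM in gfp(RNAi). The groups were far apart, and the lowest exoc3(RNAi) library held 8.33 times the gfp(RNAi) mean while the highest held 8.80 times that mean. The averages were 22.6 ± 0.614 CPM in exoc3(RNAi) X1 cells and 2.64 ± 0.205 CPM in gfp(RNAi) X1 cells (SD, n = 3 each). The fitted log2 fold change was 3.09 with a standard error (SE) of 0.08.

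Aminopeptidase N went the other way and was 67.8% lower after Smed-exoc3 dsRNA, again in each library. Its reads numbered 189, 158 and 191 in exoc3(RNAi) libraries 1, 2 and 3, against 519, 522 and 531 in the gfp(RNAi) libraries. This gave 4.97, 5.38 and 5.43 CPM in exoc3(RNAi) and 16.2, 16.9 and 16.0 CPM in gfp(RNAi). The highest exoc3(RNAi) library lay far below the lowest gfp(RNAi) library, and the 3 exoc3(RNAi) libraries held 30.4%, 32.9% and 33.2% of the gfp(RNAi) mean. The averages were 5.26 ± 0.249 CPM in exoc3(RNAi) and 16.3 ± 0.479 CPM in gfp(RNAi) (SD, n = 3 each). The fitted log2 fold change was -1.64 (SE 0.07), so that control cells held 3.11 times as much of this RNA.

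**Figure D1:**
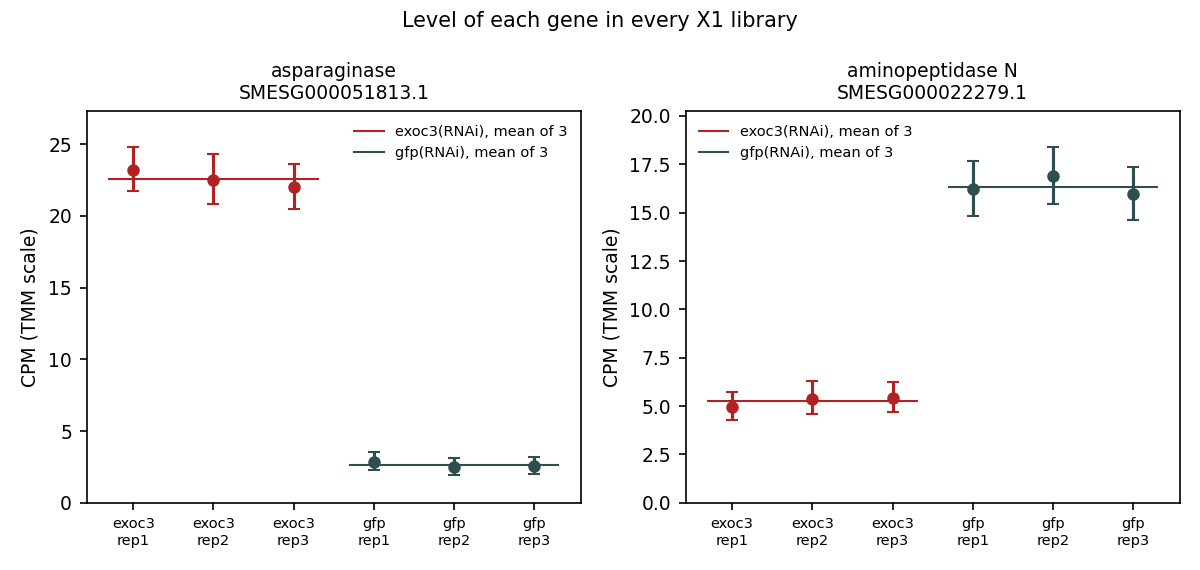
CPM (vertical axes, from 0) of asparaginase (left) and Aminopeptidase N (right) in the 3 exoc3(RNAi) and the 3 gfp(RNAi) libraries. Points are libraries, vertical bars are exact 95% Poisson intervals of the read count, and horizontal lines are group means. For asparaginase the exoc3(RNAi) points sit between 22 and 23.2 CPM and the gfp(RNAi) points between 2.49 and 2.87 CPM, and for Aminopeptidase N between 4.97 and 5.43 CPM and between 16.0 and 16.9 CPM.

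Both genes were uniform within a group. The coefficient of variation over the 3 libraries was 2.72% in exoc3(RNAi) and 7.76% in gfp(RNAi) for asparaginase, where counting error alone, computed from the reads, amounts to 3.62% in exoc3(RNAi) and 10.9% in gfp(RNAi). For Aminopeptidase N it was 4.73% in exoc3(RNAi) and 2.93% in gfp(RNAi), against a counting error of 7.51% and 4.37% in the same groups. In all 4 cases the libraries of a group differed by less than their counting error. Exact 95% Poisson intervals, which cover counting error only, ran for asparaginase from 20.5 CPM at the lowest to 24.8 CPM at the highest in exoc3(RNAi), against 1.97 to 3.52 CPM in gfp(RNAi). For Aminopeptidase N they ran from 4.29 to 6.29 CPM in exoc3(RNAi), against 14.6 to 18.4 CPM in gfp(RNAi). At this depth the intervals of the groups were separate for both genes, and the level of asparaginase in control cells was the least precise of the values.

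Within a library, the ratio of the read counts of the pair needs no scaling between libraries. Asparaginase had 4.67, 4.18 and 4.05 reads per Aminopeptidase N read in exoc3(RNAi) libraries 1, 2 and 3, against 0.177, 0.148 and 0.160 in the gfp(RNAi) libraries. The order of the read counts was thus inverted between the groups. The ratio also depends on the lengths of both transcripts, so it compares groups and not the amounts of both RNAs within a cell.

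Without exoc3(RNAi) replicate 3, the library with the weakest knockdown, the log2 fold change was 3.11 for asparaginase and -1.66 for Aminopeptidase N, and without gfp(RNAi) replicate 1 it was 3.16 and -1.64. For both genes, exoc3(RNAi) replicate 3 lay inside the counting intervals of the other exoc3(RNAi) libraries. With 3 libraries, the level of the knockdown and the levels of the pair were not tested for a relation.

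**Figure D2:**
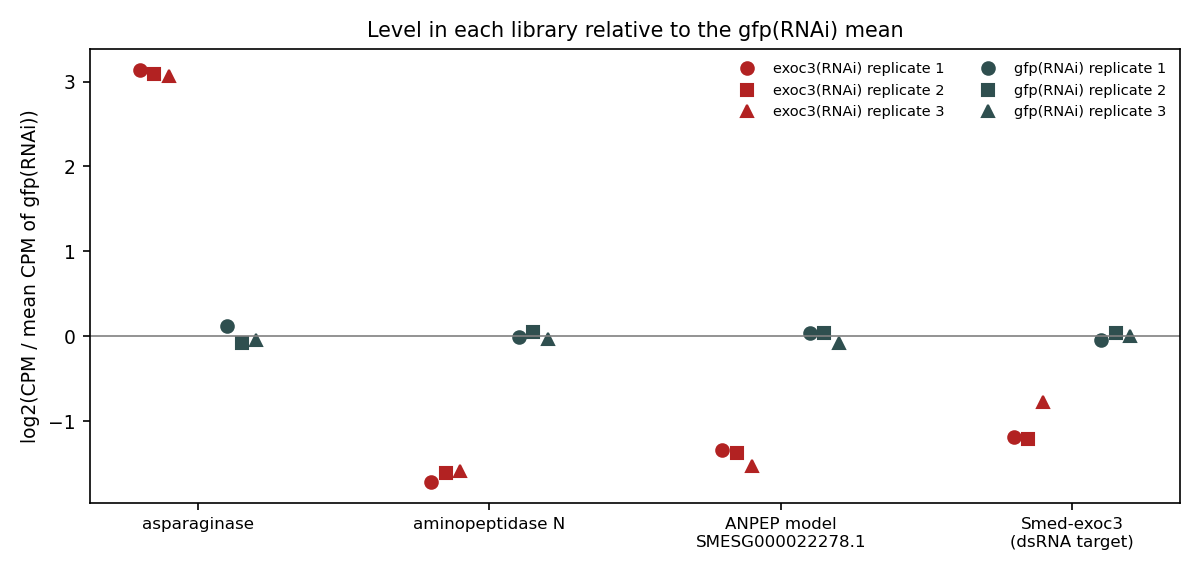
Log2 of the CPM of each library over the mean CPM of gfp(RNAi) (vertical axis) for asparaginase, Aminopeptidase N, the ANPEP model SMESG000022278.1 and Smed-exoc3. Red symbols are exoc3(RNAi) and dark symbols gfp(RNAi) libraries, with 1 symbol shape per replicate number. Replicate 3 of exoc3(RNAi) lies at 58.7% of the gfp(RNAi) mean for Smed-exoc3, above its partners at 44.1% and 43.1%, but beside its partners for both hydrolases.

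Changes of smaller size were frequent in this contrast: 53.0% of the 14700 genes tested were called at an adjusted p under 0.05, 25.8% higher and 27.1% lower in exoc3(RNAi), and for 60.8% every exoc3(RNAi) library lay on the same side of every gfp(RNAi) library. The pair stood near the ends of this distribution, as the choice of these genes implies. For asparaginase, 9 tested genes had a larger positive log2 fold change, all of them with fewer reads, at means of 0.334 to 6.67 CPM over the 6 libraries. When only called genes without overlap and with a mean of at least 10 CPM over all libraries were ranked, the gene next below it was a putative saposin (SMESG000019975.1) at 2.72. Saposins assist the breakdown of lipids in lysosomes of mammals. For Aminopeptidase N, 15 tested genes had a larger negative change, and 14 of these averaged under 10 CPM. At the same minimum its neighbours in rank were pmp-4 (SMESG000042765.1), a marker of post-mitotic epidermal progenitors, at -1.77 and Endophilin B (ENDOB, SMESG000043769.1), a membrane-bending protein, at -1.62. The mean over the 6 libraries was 12.6 CPM for asparaginase and 10.8 CPM for Aminopeptidase N. Each reached the minimum only through the group in which it was high, so a place in that ranking is set in part by the change itself and supports nothing.

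The other enzymes of asparagine, peptide and amino acid metabolism were taken from the genes that carry a description in the annotation used by the study. That annotation covers 1528 tested genes, nearly all of which the study had called in these libraries, so 99.7% of them were called here, 32.5% higher and 67.3% lower. The counts below are read against these shares and are no independent evidence of a direction. The adjusted p-values of listed genes come from the same libraries in which nearly all described genes had been called. They are given as descriptions and are no independent tests.

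The list held 3 other described gene models of the M1 family, to which Aminopeptidase N belongs. All 3 fell, with a median log2 fold change of -1.41, against -0.36 for all described genes and 0.02 for all genes tested, but most described genes were lower, and 1 of the 3, SMESG000022278.1, may not be a gene separate from Aminopeptidase N. The model SMESG000022278.1, described as alanyl (membrane) aminopeptidase (ANPEP), had 6.82, 6.64 and 5.97 CPM in exoc3(RNAi) and 17.7, 17.7 and 16.3 CPM in gfp(RNAi). A further ANPEP model, SMESG000033518.1, had 3.55, 3.58 and 3.64 CPM in exoc3(RNAi) and 9.59, 10.8 and 11.2 CPM in gfp(RNAi). Both were thus at 0.376 and 0.341 times their control level. The groups did not overlap, which was also so for 1520 of the 1528 described genes and 60.8% of all genes tested. Their log2 fold changes were -1.41 (SE 0.08, edgeR quasi-likelihood adjusted p = 1.7e-08) and -1.55 (SE 0.09, adjusted p = 3.3e-08). The puromycin-sensitive aminopeptidase NPEPPS (SMESG000044234.1), a largely cytosolic M1 enzyme in mammals, fell less, to 61.6 ± 0.653 CPM in exoc3(RNAi), against 86.1 ± 1.13 CPM in gfp(RNAi) (log2 fold change -0.48, SE 0.03, adjusted p = 1.5e-07).

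The 3 gene models of the Aminopeptidase N type are not separate measurements in every respect. The annotation assigns the catalytic M1 domain without the C-terminal domain to SMESG000022279.1 and the ERAP1-like C-terminal domain without the catalytic one to SMESG000022278.1, whose number is the next lower, while SMESG000033518.1 carries both. SMESG000033518.1 also shares a matching planarian cDNA clone with each of the other models. Reads that fit several places were left out by the authors, so reads from any stretch that copies share would be missing from all 3 levels, and whether the consecutive models belong to the same gene could not be decided because genome positions were not used here. Reads of SMESG000022279.1 per read of SMESG000022278.1 were 0.730, 0.810 and 0.910 in exoc3(RNAi), against 0.914, 0.956 and 0.982 in gfp(RNAi). The ratios of the groups did not overlap, but those of exoc3(RNAi) replicate 3 and gfp(RNAi) replicate 1 were almost equal. The means were 0.817 ± 0.0901 in exoc3(RNAi) and 0.950 ± 0.0342 in gfp(RNAi) (SD, n = 3 each).

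Aminopeptidases of other families went in both directions, with 2 of 4 higher and 2 lower and a median log2 fold change of 0.07. Aspartyl aminopeptidase (DNPEP, SMESG000011865.1), which takes aspartate or glutamate off peptides, rose to 157 ± 3.56 CPM in exoc3(RNAi), against 116 ± 4.38 CPM in gfp(RNAi) (log2 fold change 0.43, SE 0.04, edgeR adjusted p = 6.0e-07). Of the models described as putative aminopeptidase W07G4.4, a name from Caenorhabditis elegans, SMESG000037599.1 rose by 0.60 (SE 0.05) and SMESG000037231.1 fell by 0.34 on the log2 scale (SE 0.03). METAP2 (SMESG000007051.1), which removes the initiator methionine of new proteins, fell by 0.29 (SE 0.03). All 4 changes were smaller than that of Aminopeptidase N. That gene was chosen for its large change, so this order supports nothing.

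Of 11 enzymes that make or use asparagine, aspartate or glutamine, 5 rose, 5 fell and 1 was not called, with a median log2 fold change of -0.15. D-aspartate oxidase (DDO, SMESG000081233.1), which oxidises D-aspartate, had the largest rise of the list from very few reads, with 78, 50 and 71 reads in exoc3(RNAi) and 8, 4 and 6 reads in gfp(RNAi). Its log2 fold change was 3.34, with an SE of 0.26 that is far wider than that of asparaginase (edgeR quasi-likelihood adjusted p = 3.4e-07). The glutamine synthetases, which join ammonia to glutamate, were both higher. SMESG000003831.1 had 10.7, 9.84 and 13.3 CPM in exoc3(RNAi) and 3.50, 3.95 and 4.72 CPM in gfp(RNAi), and SMESG000000211.1 had 3.84, 3.71 and 6.11 CPM in exoc3(RNAi) and 1.56, 1.33 and 1.38 CPM in gfp(RNAi). Replicate 3 of exoc3(RNAi) was the highest in both, unlike for asparaginase, and the log2 fold changes of 1.48 (SE 0.13) and 1.68 (SE 0.20) became 1.35 and 1.41 without it. Aspartylglucosaminidase (AGA, SMESG000003786.1), the lysosomal enzyme that splits the bond between asparagine and sugar chains, rose to 37.3 ± 1.48 CPM in exoc3(RNAi), against 24.0 ± 0.905 CPM in gfp(RNAi) (log2 fold change 0.64, SE 0.05, adjusted p = 4.3e-07).

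On the falling side, ASS1 (SMESG000053052.1), which condenses citrulline with aspartate, fell by 0.85 on the log2 scale (SE 0.06, edgeR adjusted p = 9.7e-08), to 13.9 ± 0.585 CPM in exoc3(RNAi), against 25.0 ± 0.490 CPM in gfp(RNAi). CTPS1 (SMESG000012989.1), a glutamine-using enzyme of pyrimidine synthesis, had the smallest change, -0.15 (SE 0.04, adjusted p = 0.0095), and was no longer called when libraries were scaled by their totals alone (adjusted p = 0.057). GFPT2 (SMESG000073848.1), the 1 enzyme not called and named here after its value was seen, had 33.2, 33.6 and 43.9 CPM in exoc3(RNAi) and 42.6, 42.9 and 42.7 CPM in gfp(RNAi). It was called lower without exoc3(RNAi) replicate 3. With all libraries it was also called lower under RLE scaling, no filter, DESeq2 or a replicate block. In each of these cases 6 of 11 enzymes fell.

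The 3 gamma-glutamyl enzymes of glutathione metabolism, which handle glutamate bonds outside proteins, all fell, from -0.61 for GGT1 (SMESG000000747.1, SE 0.06) to -0.43 for GCLC (SMESG000040961.1, SE 0.05). Carboxypeptidases and dipeptidases, which cut at the opposite end of peptides or cut short peptides, were divided, with 4 of 7 higher and 3 lower. Cathepsin A (CTSA, SMESG000029163.1), a lysosomal carboxypeptidase, led the rise with 4.37, 3.95 and 6.37 CPM in exoc3(RNAi) and 0.812, 1.16 and 0.871 CPM in gfp(RNAi) (log2 fold change 2.37, SE 0.21, edgeR adjusted p = 9.5e-07). Angiotensin I converting enzyme (ACE, SMESG000005712.1), in mammals a membrane ectopeptidase like Aminopeptidase N, led the fall with 3.66, 3.54 and 3.81 CPM in exoc3(RNAi) and 9.65, 10.6 and 9.29 CPM in gfp(RNAi) (log2 fold change -1.42, SE 0.09, adjusted p = 6.2e-08). The peptidase PM20D2 (SMESG000049098.1) changed least, by -0.58 (SE 0.05).

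Among 5 amino acid transporters, 2 rose and 3 fell. The excitatory amino acid transporter model SMESG000064126.1, of a family that carries glutamate and aspartate into cells, rose to 24.8 ± 4.04 CPM in exoc3(RNAi), against 11.7 ± 0.113 CPM in gfp(RNAi) (log2 fold change 1.09, SE 0.10, edgeR adjusted p = 9.5e-07). SMESG000064880.1, described as the mitochondrial arginine transporter BAC2, fell by 1.30 (SE 0.10). SLC7A11 (SMESG000006721.1), the cystine and glutamate exchanger, fell by 0.85 (SE 0.07), and the permease CG1607 (SMESG000044247.1) changed least, by 0.20 (SE 0.04). SLC7A11 is also 1 of the epidermal progenitor markers named below.

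**Figure D3:**
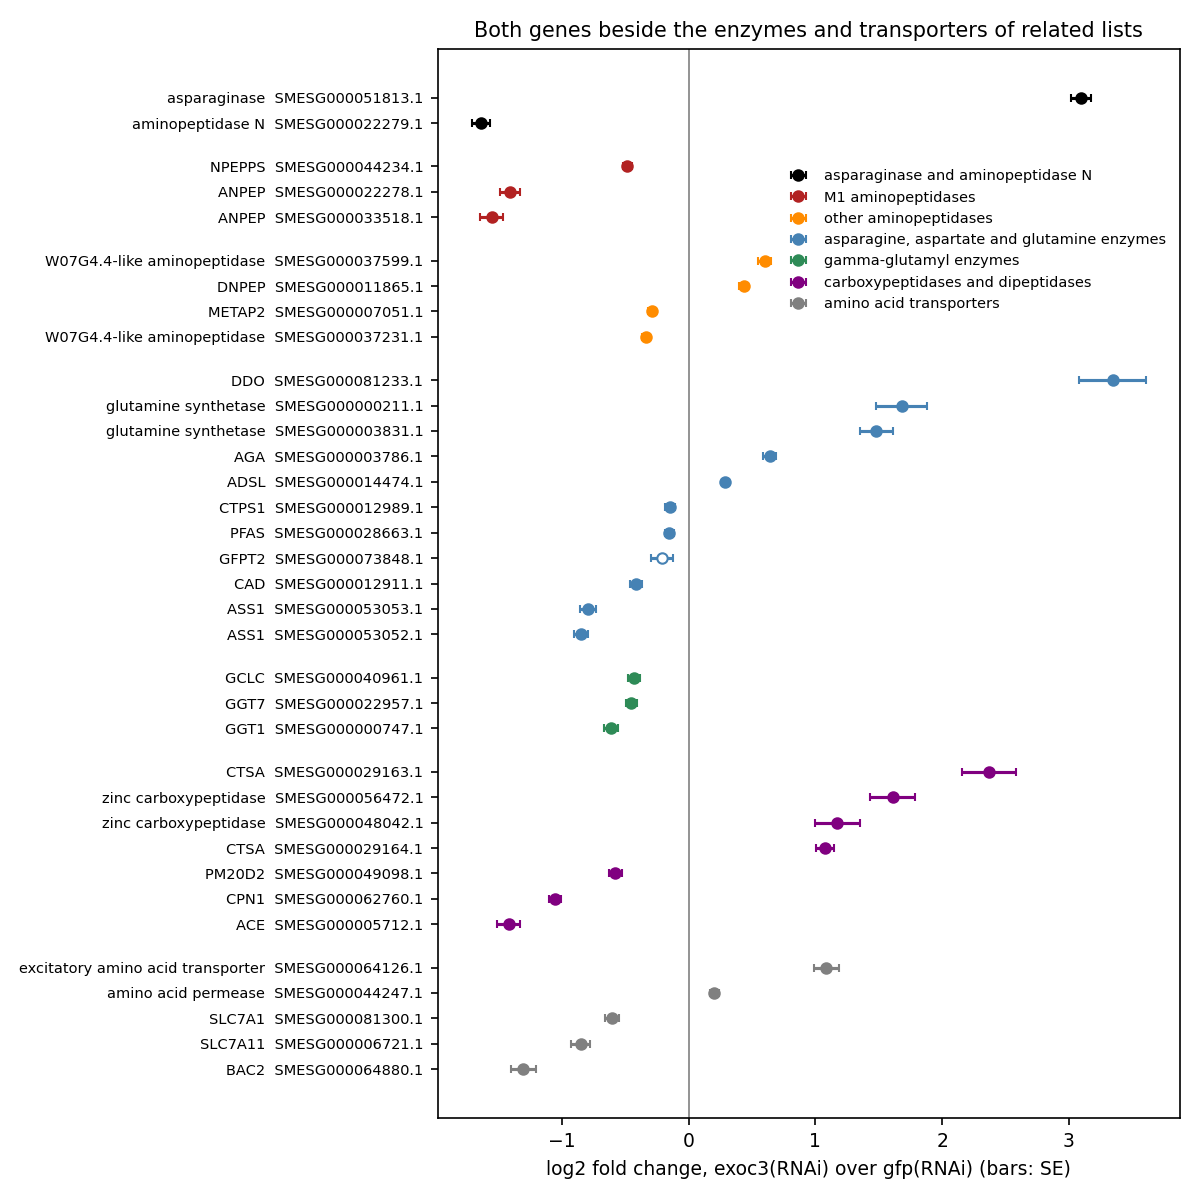
Log2 fold change, exoc3(RNAi) over gfp(RNAi), with its SE (horizontal axis), of asparaginase, Aminopeptidase N and the 33 genes of the related lists, each list in its own colour. Filled points were called at an adjusted p under 0.05 and the open point, GFPT2, was not. The 3 listed M1 aminopeptidases lie left of 0, the other lists except the gamma-glutamyl enzymes lie on both sides, and DDO at 3.34 is the point nearest to asparaginase at 3.09.

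The genes whose profile over the 6 libraries lay nearest to each of the pair were found by the Euclidean distance between log2 CPM values centred on the mean of each gene. With 6 libraries in 2 groups this mainly finds genes with a change of like size. For asparaginase the nearest were DDO at a distance of 0.42, the model SMESG000051013.1 with no description at 0.45 and the putative saposin SMESG000019975.1 at 0.49. DDO had only 8, 4 and 6 reads in gfp(RNAi). A prior count of 2, added before the log2, damps the change and scatter of such a gene. The order of these 3 genes without a prior count was not tested. SMESG000051013.1 had 6.95, 6.03 and 5.09 CPM in exoc3(RNAi) and 0.937, 0.776 and 0.751 CPM in gfp(RNAi), and the saposin had 38.9, 39.4 and 43.1 CPM in exoc3(RNAi) and 6.24, 6.14 and 6.01 CPM in gfp(RNAi). Only 12 genes lay within 1 log2 unit of asparaginase, while 256 lay as near to Aminopeptidase N.

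For Aminopeptidase N the nearest gene was OXCT1 (SMESG000080424.1), the mitochondrial enzyme that activates ketone bodies for use as fuel, at a distance of 0.20. It had 14.9, 15.8 and 14.4 CPM in exoc3(RNAi) and 45.4, 43.1 and 41.5 CPM in gfp(RNAi). The ANPEP model SMESG000033518.1 came next at 0.22, and SMESG000020813.1, with a protease inhibitor domain of the BPTI type but no description, followed at 0.26 with 15.6, 17.2 and 14.0 CPM in exoc3(RNAi) and 46.0, 46.3 and 46.8 CPM in gfp(RNAi). These neighbours depend on the measure: by Pearson correlation of log2 CPM, 0 of the 3 nearest genes stayed the same for either gene, OXCT1 ranked 71 and DDO 117, and 382 genes correlated above 0.99 with Aminopeptidase N and 235 with asparaginase.

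**Figure D4:**
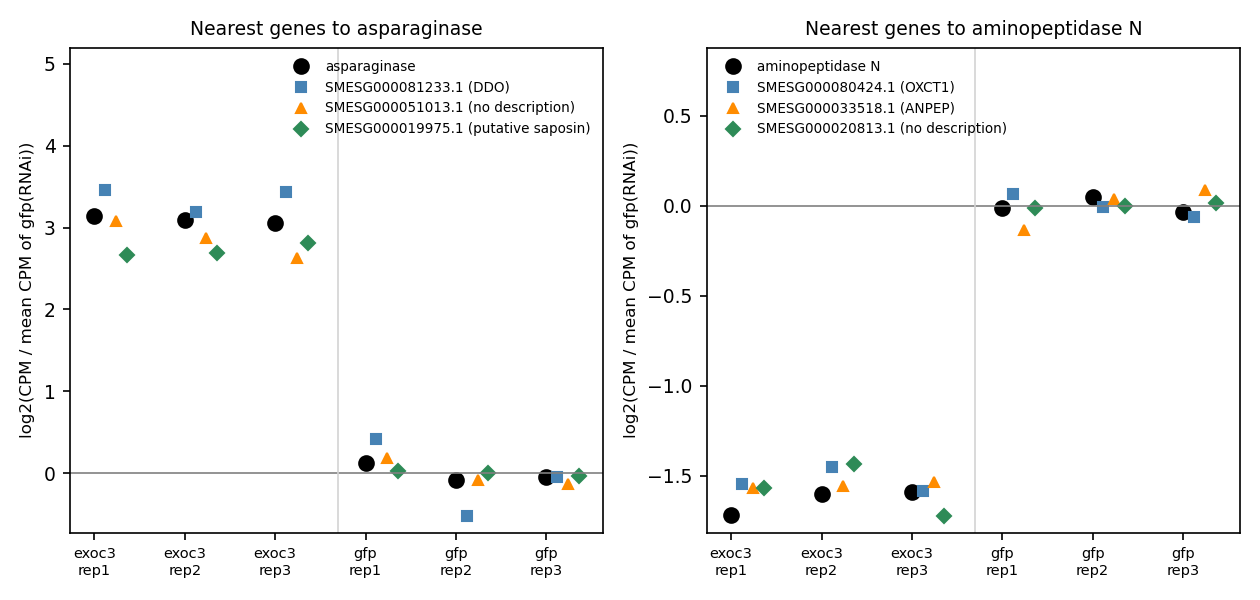
Log2 of CPM over the gfp(RNAi) mean (vertical axes) in each library (horizontal axes, exoc3(RNAi) left) for asparaginase and its 3 nearest genes (left) and for Aminopeptidase N and its 3 nearest genes (right). The genes of each panel move together between groups, and DDO, with 4 to 8 reads in gfp(RNAi), scatters most.

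The sorted fraction also held RNA of lineage markers that moved in the same contrast. The marker lists were chosen with earlier results of these data known, so their counts are descriptions. They stand beside 25.8% called higher and 27.1% called lower among all genes tested, and 32.5% and 67.3% among described genes. All 7 stem cell markers were detected in every library, with a summed level of 8254 to 9037 CPM in exoc3(RNAi) and 10636 to 10838 CPM in gfp(RNAi). Of these, 2 rose and 5 fell, from vasa-2 at 0.25 to smedwi-2 at -0.48, with soxP-1 least changed at -0.18. Most of the stem cell sums came from smedwi-2 and smedwi-3. The means of smedwi-2 were 3462 CPM in exoc3(RNAi) and 4835 CPM in gfp(RNAi), and those of smedwi-3 were 2693 and 3230 CPM. All 20 markers of epidermal progenitors fell, by a median of -1.05, from pmp-4 at -1.77 to p53 at -0.26, with summed levels of 1525 to 1579 CPM in exoc3(RNAi) and 3079 to 3165 CPM in gfp(RNAi). The study had already reported that every such marker it called in these libraries was lower, so this count is no independent evidence. With robust dispersion estimation 19 of the 20 were called, without prog-1 (adjusted p = 0.093). Neither asparaginase nor Aminopeptidase N is on the list of epidermal progenitor markers. The fall of Aminopeptidase N was larger than that of 19 of the 20, but it was chosen for its large change, so this order supports nothing. Both models of the gut factor gata456 fell, by 0.79 and 0.76, and were low, with sums of 6.02 to 7.24 CPM in exoc3(RNAi) and 10.2 to 12.8 CPM in gfp(RNAi).

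Muscle markers were divided, with MYH15 at 0.71 and the tropomyosin models (TM1) at -0.35 and -0.53, and sums of 190 to 201 CPM in exoc3(RNAi) and 224 to 225 CPM in gfp(RNAi). Of 6 neural markers 4 rose and 2 fell, from npp-22 at 0.68 to a synaptotagmin model (SMESG000055143.1) at -0.34, with a SNAP25 model (SMESG000034282.1) least changed at -0.28 and sums of 2175 to 2284 CPM in exoc3(RNAi) and 1746 to 1885 CPM in gfp(RNAi). Most of the neural sums came from npp-18 alone, with means of 1997 CPM in exoc3(RNAi) and 1610 CPM in gfp(RNAi). No marker was at 0 reads in any library. The part of these lineages in the levels of asparaginase and Aminopeptidase N was not tested, and in sorted but pooled cells fewer cells of a type and less RNA per cell cannot be told apart.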

How the data were processed

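RNA of X1 cells from 3 exoc3(RNAi) and 3 gfp(RNAi) samples, described by the study as biological replicates, was sequenced with a stranded mRNA kit. The authors demultiplexed reads with bcl2fastq 1.8.4, aligned them with STAR 2.7.2b to the dd_Smes_g4 genome and counted uniquely aligned reads per gene model with featureCounts 1.6.5 on the reverse strand, so the deposited values are raw counts. Reads assigned to gene models numbered 28897363 to 37525894 per library. No pair of libraries agreed within sampling noise.

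Genes passing filterByExpr (minimum count 10) were analysed with edgeR 4.0.16 (R 4.3.3): TMM scaling, then a two-sided quasi-likelihood test of group over the 6 libraries without further terms, with Benjamini-Hochberg adjustment over 14700 genes and calls at an adjusted p under 0.05. CPM use TMM-scaled library sizes, and distances used log2 CPM with a prior count of 2. SE is the absolute log2 fold change over the square root of F. The script was tested on simulated data. Alternatives were scaling by library size or RLE, other filters, DESeq2 1.42.0, robust dispersion, a replicate block, a stricter threshold and leaving out each library.

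Both genes and all lists were chosen with earlier results of these data known. Named were, besides both genes and Smed-exoc3, every listed aminopeptidase, and these were taken from the described genes only. Of every other list, the largest rise, largest fall and smallest change were named. AGA, both glutamine synthetases, SLC7A11, the 3 nearest genes and the neighbours in rank were named too. Gene descriptions came from the annotation of the study, whose fold changes and p-values were not used. Sequences and positions were not analysed here.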

Additional observations from a re-analysis of the deposited data

How the results depend on the processing

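Asparaginase kept its rise and Aminopeptidase N its fall under all 14 alternatives each, with log2 fold changes of 3.06 to 3.16 and of -1.66 to -1.58. Leaving out each library in turn gave 3.06 to 3.16 for asparaginase, -1.66 to -1.60 for Aminopeptidase N, -1.20 to -0.96 for Smed-exoc3 and 6642 to 8115 called genes, against 7784 with all libraries. Scaling by library size alone moved the median of all genes by 0.05 and gave 3.15 and -1.58. DESeq2 called 6371 genes, and 5843 passed an adjusted p under 0.01.

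Libraries with the same replicate number showed no shared deviation around their group means, with correlations of -0.0083, 0.014 and -0.026 across genes, which are not independent replicates. With 3 libraries per group, this cannot show that equal numbers mark unrelated samples. A replicate block gave 7642 calls, and 7506 of those genes were called without it too, while the log2 fold changes were 3.09, -1.64 and -1.05 for asparaginase, Aminopeptidase N and Smed-exoc3.

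For the other 70 genes of the lists, 893 of 900 values under alternatives kept direction and call. The 7 others concerned CTPS1, prog-1, which was not called with robust dispersion (adjusted p = 0.093), and GFPT2, which was called under 5 alternatives. None changed direction. Ranked by Pearson correlation of log2 CPM in place of distance, 0 of the 3 nearest genes stayed the same for either gene. The level of asparaginase in gfp(RNAi), at 77 to 92 reads, is limited by depth.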
